A study of Mus musculus with 5 samples.

Results

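Gene expression of the bone sub-line of NT2.5 cells was compared with that of the liver sub-line. The comparison used 4 of the 5 arrays of the series, namely 2 of the bone sub-line (passages 3 and 6) and 2 of the liver sub-line (passages 1 and 3). The arrays were chosen by their labels alone. NT2.5 is a mouse mammary tumour line from mice that express the rat neu oncogene in the mammary gland, and the sub-lines carry labels for the site to which they prefer to metastasise. The remaining array holds the parental NT2.5 cells, labelled as wild type and with bone, liver and lung as preferred sites, and is given beside the others as the starting point of both sub-lines. No treatment, host strain or age is named for any of the samples.

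A tumour cell that grows in bone meets osteoblasts, which lay down and mineralise matrix, and osteoclasts, which resorb it, and both answer to cytokines and proteases released by the tumour. A tumour cell in the liver meets hepatocytes, sinusoidal endothelium and resident macrophages. Mammary tumour cells of the neu model are epithelial cells of luminal type, and they can release factors that act on all of these neighbours.

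Each sub-line is 1 lineage, and its 2 arrays are successive passages of that lineage, not independent lines. The p-values therefore measure the spread between passages, and a line and its passage numbers cannot be told apart except at passage 3, which both sub-lines have. Median intensity over all probe sets was 26.4 and 21.9 on the bone arrays, 24.6 and 26.2 on the liver arrays and 26.1 on the parental array. Intensities are given in one order throughout: bone passage 3, bone passage 6, liver passage 1, liver passage 3, then parental cells. A log2 difference is the mean of the bone arrays minus the mean of the liver arrays on the log2(intensity + 16) scale, with its standard error (SE, n = 2 passages per sub-line) from limma. The words rose and fell set bone against liver and do not name a change from parental cells.

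Epithelial markers were bright on all 4 arrays: 13 of the 14 mammary epithelial markers named on the array reached an intensity of 100 on at least 1 of them. Epcam, the epithelial adhesion molecule, read 4262 and 4384 in bone, 3980.2 and 3761 in liver and 4014 in parental cells. Cdh1, which encodes E-cadherin, read 3511 and 3282 in bone, 3724 and 3637 in liver and 3364 in parental cells. Krt19 was the exception among the markers, at 3.3 and 1.5 in bone and 2.9 and 2.9 in liver. Of 22 hepatocyte markers 15 stayed below the median of all values, 25.1, on all 4 arrays, and the albumin gene Alb lay between 2.4 and 10.1. Likewise 5 of 8 osteoblast, 5 of 10 osteoclast, 14 of 18 lymphocyte, 9 of 15 endothelial and 9 of 16 fibroblast markers stayed below that line, as did 6 of 8 Kupffer cell, 5 of 7 adipocyte, 4 of 8 dendritic cell and 3 of 6 bile duct markers. Fewer stayed below it among markers of hepatic stellate cells (3 of 9), neutrophils (4 of 9, with 2 that reached 100), erythroid cells and megakaryocytes (3 of 7) and macrophages (7 of 27). For comparison, 12609 of all 18193 genes with a probe set reached the line on at least 1 of the 5 arrays, and the rest stayed below it.

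Of 12609 genes tested, 24 passed limma at a Benjamini-Hochberg adjusted p of 0.05, which is 0.19% (12 higher and 12 lower in bone, 0.0952% each). A wider set was made of genes whose lowest value in one sub-line was at least 2-fold above the highest in the other, so that all 4 pairings of a bone with a liver array were 2-fold apart. This set was 1.06% of the genes tested, with 56 (0.444%) higher and 78 (0.619%) lower in bone. All 24 called genes were in it. The other 110 genes had limma adjusted p-values from 0.0509 to 0.221, so they are described by their values and not as changes. A still wider set had bone and liver values that did not overlap, with no minimum size. It held 5938 genes (47.1%), of which 2667 (21.2%) were higher and 3271 (25.9%) lower in bone, so a lack of overlap alone separates few genes from the rest. The split between directions depended on the scaling: 44.9% of these genes were higher as deposited, 58.2% when each array was centred on its median and 50.6% after quantile normalization. The median log2 difference of all genes tested was -0.02.

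**Figure D1:**
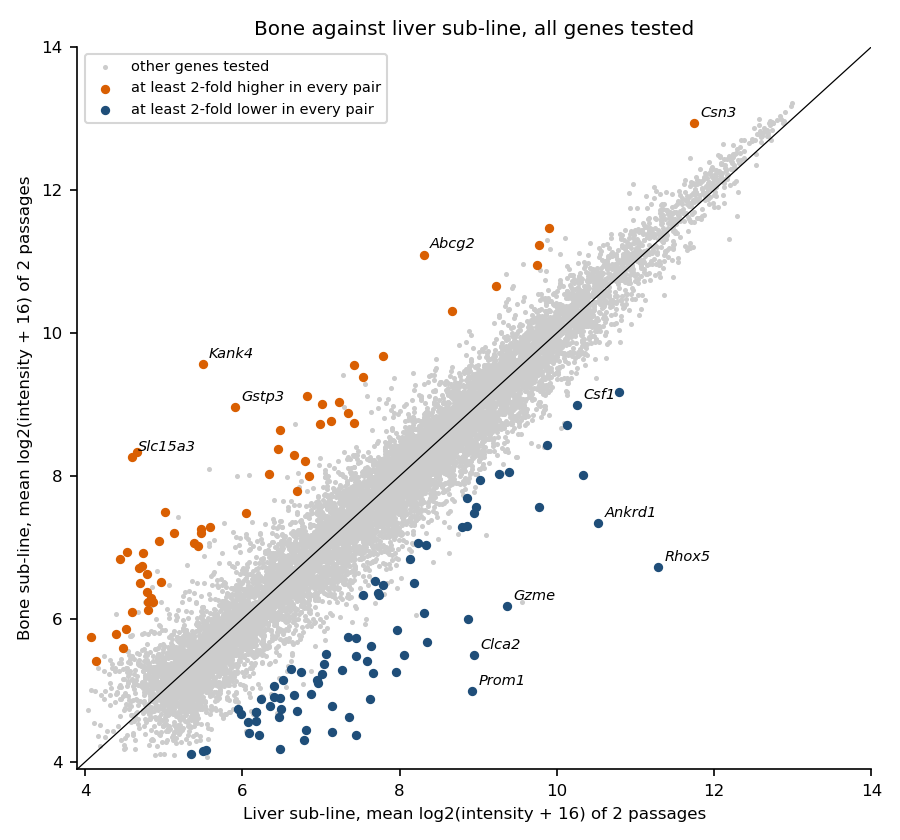
Mean log2(intensity + 16) of the 2 bone passages against that of the 2 liver passages for the 12609 genes tested; the line marks equal values. The 56 orange genes and the 78 blue genes were 2-fold apart or more in all 4 pairings, and both colours occur among dim and bright genes.

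Membrane transporters were among the genes that differed most in both directions. Slc15a3, a lysosomal carrier of peptides and histidine, rose from 12.1 and 4.7 on the liver arrays to 297 and 285 on the bone arrays, with 2.2 in parental cells (limma adjusted p = 0.0242). Both liver values and the parental value were below the overall median of 25.1, so the size of its fold change is not well determined. The gene of provisional name next to it in the order of tested genes, A430093F15Rik, read 63.4 and 55.8 in bone, 16.4 and 10.1 in liver and 16.9 in parental cells, and was picked for its position after its values were seen. Abcg2, an efflux pump for drugs and porphyrins, rose as well, with 2014 and 2340.2 in bone, 325 and 278 in liver and 939.7 in parental cells (adjusted p = 0.0342). Its parental value lay between the sub-lines. The sodium, potassium and chloride cotransporter Slc12a2 was a bright gene, at 2671 and 2989.9 in bone, 828 and 1075 in liver and 756 in parental cells. The aquaglyceroporin Aqp9 read 148 and 94.1 in bone, 28.7 and 22.8 in liver and 58.9 in parental cells, and the magnesium channel Trpm6 read 237 and 253 in bone, 48.3 and 85.4 in liver and 57.7 in parental cells. In these 3 genes all bone values lay above all liver values, but none passed limma.

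Other carriers were lower in bone. Slc39a8, which imports zinc and manganese, fell to 152 and 197 in bone against 792 and 933 in liver, and the parental array stood with liver at 704 (adjusted p = 0.0437). A second probe set of Slc39a8 gave a log2 difference of -2.28, close to the -2.21 of the first. Clca2, a regulator of chloride conductance, also fell, with 48.6 and 15.3 in bone, 596 and 382 in liver and 300.5 in parental cells (adjusted p = 0.0478). The sodium and calcium exchanger Slc24a3 read 138 and 146 in bone, 434 and 460.0 in liver and 144 in parental cells, and here the parental value was level with bone. Across families the directions were mixed. Among 235 solute carriers 49 were higher and 65 lower without overlap, which is 20.9% and 27.7%, against 21.2% and 25.9% of all genes. Among 113 ion channels and their subunits 20 were higher and 23 lower (17.7% and 20.4%). Neither family departed far from the shares over all genes. Limma called 1 solute carrier in each direction, 1 of 28 ABC transporters (higher) and 1 ion channel gene (lower).

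Genes of the antioxidant programme driven by the transcription factor NRF2 were higher in bone more often than genes overall. NRF2 binds antioxidant response elements and is held back by Keap1, which marks it for degradation. The NRF2 list holds targets of this factor together with Keap1 and Nfe2l2, the gene of NRF2 itself. Of its 41 tested members, 15 were higher and 6 lower without overlap, and Keap1 counts among the 6. These shares are 36.6% and 14.6%, against 21.2% and 25.9% of all genes. The median log2 difference was 0.29, and limma called 3 (0.19% of all genes were called), all higher: Abcg2, Nqo1 and Blvrb. Without the array of liver passage 1 the median was 0.11. Nqo1, a quinone reductase, rose to 174 and 157 from 18.4 and 14.3 (adjusted p = 0.0342). Its parental value of 8.3 was below both liver values. Blvrb, which reduces biliverdin, rose to 135 and 107 from 20.3 and 9.9 (adjusted p = 0.0478).

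Other members of the list were less far apart. Keap1 itself read 172 and 160.1 in bone, 271 and 302 in liver and 238 in parental cells, so bone was below liver and parental cells lay between. The log2 difference of Keap1 was -0.73 ± 0.18, and its adjusted p was 0.187. Malic enzyme, Me1, which makes NADPH, ran against the list, at 433 and 448 in bone, 629.7 and 819.8 in liver and 530.0 in parental cells. Gstp3, a glutathione transferase of the wider xenobiotic family, read 453 and 513 in bone, 14 and 104 in liver and 11.9 in parental cells. Both bone arrays were far above both liver arrays, but the liver passages themselves differed widely, and Gstp3 did not pass (adjusted p = 0.13). The carboxylesterase Ces5a went the other way, at 71.5 and 13.9 in bone, 271 and 354 in liver and 272 in parental cells. In the whole family of 143 xenobiotic, aldehyde and glutathione enzymes 41 were higher and 26 lower without overlap (28.7% and 18.2%, against 21.2% and 25.9% of all genes). The median log2 difference was 0.09, and it was 0.04 both without liver passage 1 and without bone passage 3.

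The core of the antioxidant response element, TGACNNNGC, was searched on both strands in promoters from RefSeq (build GRCm38.p6), each from 250 bases before to 50 bases after a transcription start. It was present in 12.4% of all 32851 promoters. At least 1 promoter held it in 10 of the 33 members of the NRF2 list that matched by symbol (30.3%) and in 16.8% of the 10180 tested genes that matched. None of the windows of Nqo1, Blvrb or Abcg2 contained these letters.

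Adhesion and polarity genes changed in both directions. Tspan1, a tetraspanin of epithelial membranes, rose to 91.3 and 106 in bone from 4.0 and 7.6 in liver (adjusted p = 0.0342), although a second probe set gave only 0.73 on the log2 scale. Tspan12, which assists Norrin signalling through frizzled receptors, read 113 and 153 in bone, 24.6 and 14.4 in liver and 27.6 in parental cells and stood just outside the threshold (adjusted p = 0.0509). The tight junction gene Cldn8 was at background in liver, with 59.8 and 22.1 in bone, 0.5 and 1.1 in liver and 17.9 in parental cells. Prom1, the membrane glycoprotein known as CD133, read 32.4 and 4.9 in bone against 453 and 485 in liver (adjusted p = 0.0437). The parental value of Prom1 was 59.6, much nearer to bone.

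Both polarity genes of the PAR complex that were 2-fold apart were lower in bone. Pard3b fell to 5.7 and 2.2 from 113 and 78.2, with 107 in parental cells (adjusted p = 0.0437), but its 3 probe sets ranged from -2.47 to -0.53. Pard6g read 30.6 and 26.8 in bone, 131 and 191 in liver and 98.5 in parental cells (adjusted p = 0.0509), and a second probe set gave -0.69. The family of 63 tested junction genes had 16 higher and 10 lower without overlap (25.4% and 15.9%, against 21.2% and 25.9% of all genes). Among 66 integrins, tetraspanins and adhesion receptors 16 were higher and 17 lower without overlap (24.2% and 25.8%), close to the shares of all genes.

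An actin regulator also rose. Kank4, an ankyrin-repeat protein of cell adhesions, read 1097 and 502 in bone, 24.6 and 34.1 in liver and 59.3 in parental cells, a log2 difference of 4.07 ± 0.37 (adjusted p = 0.0437). The bone passages differed from each other, and both stood far above both liver arrays. Dock11, which activates the GTPase CDC42, read 62.4 and 171 in bone, 13.0 and 8.3 in liver and 202 in parental cells. It was the only gene of chromosome X among the 56 higher genes, and its parental value was above all 4. The formin Fhod3 read 31.4 and 22.3 in bone, 187 and 165 in liver and 53.3 in parental cells (adjusted p = 0.0437).

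Further genes of the contractile apparatus were picked with their values in view, except Tnnt3. The actin-bundling protein gene Palld read 1233.5 and 1275 in bone, 482 and 315 in liver and 1144 in parental cells, although 1 of its 3 probe sets gave 0.11. Ankrd1, a stretch-responsive gene, read 91.9 and 228 in bone, 602 and 3496 in liver and 80.2 in parental cells, with a wide spread between the liver passages. The troponin gene Tnnt3 read 2.3 and 1.9 in bone, 50.6 and 103 in liver and 31.7 in parental cells, at background in bone. Mybpc2, a myosin-binding protein, went the other way with 63.6 and 70.1 in bone, 8.6 and 15.1 in liver and 2.5 in parental cells.

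Kank4 and the kallikrein Klk10 stand for 2 kinds of promoter among the called genes. Their RefSeq promoters are shown with each CG in capitals. Kank4 (chr4:98817488-98817787, minus strand) has 38 CG in 300 bases and Klk10 (chr7:43780804-43781103, plus strand) has 2.
Kank4: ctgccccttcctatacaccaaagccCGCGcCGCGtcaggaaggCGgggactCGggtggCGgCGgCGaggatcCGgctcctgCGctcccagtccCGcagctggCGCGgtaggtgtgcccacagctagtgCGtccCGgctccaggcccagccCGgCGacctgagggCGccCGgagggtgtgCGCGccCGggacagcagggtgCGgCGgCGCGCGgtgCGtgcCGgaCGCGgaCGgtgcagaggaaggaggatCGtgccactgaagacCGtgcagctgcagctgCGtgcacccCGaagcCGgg
Klk10: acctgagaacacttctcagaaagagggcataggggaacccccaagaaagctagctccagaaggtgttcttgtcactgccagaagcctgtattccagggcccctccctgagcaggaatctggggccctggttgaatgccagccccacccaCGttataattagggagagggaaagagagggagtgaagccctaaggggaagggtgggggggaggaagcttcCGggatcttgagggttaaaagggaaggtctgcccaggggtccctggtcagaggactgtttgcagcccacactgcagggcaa
The observed number of CG over the number expected from base composition was 0.93 for Kank4 and 0.0837 for Klk10. This ratio was at least 0.6 in 73% of the 10180 tested genes with a promoter in the table, taking the highest promoter of a gene. It was at least 0.6 in 19 of 46 genes (41.3%) that were 2-fold higher in every pair and in 30 of 57 (52.6%) that were 2-fold lower. The median ratio was 0.78 over all tested genes, 0.49 over the higher and 0.65 over the lower genes.

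Among secreted proteases, 3 kallikreins were higher in bone. Klk10, a secreted serine protease of the kallikrein cluster, read 453 and 326 in bone, 78.9 and 67.5 in liver and 422 in parental cells (adjusted p = 0.0437). The kallikrein Klk6 read 351 and 254 in bone, 76.8 and 93.2 in liver and 301 in parental cells. Klk8, which lies between them in gene order and was picked for that after its values were seen, read 169 and 186 in bone, 88.3 and 91.2 in liver and 135 in parental cells. All 3 neighbours had both bone values above both liver values, with parental cells nearer to bone, whereas Klk9 in the same stretch read 29.7 and 14.5 against 23.7 and 21.1 and overlapped. The carboxypeptidase gene Cpm read 193 and 102 in bone, 30.4 and 34.0 in liver and 94.9 in parental cells.

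The 3 genes of metalloprotease families that were 2-fold apart and lower in bone differed in size. Adam12, a sheddase of growth factors, read 55.3 and 99.4 in bone, 272 and 276 in liver and 185 in parental cells. Neprilysin, Mme, which cleaves peptides at the cell surface, read 524 and 106 in bone, 1101 and 1461 in liver and 849 in parental cells, and the bone passages differed from each other. Adamtsl3, a protease-like matrix protein, read 39.0 and 21.7 in bone, 112 and 122.9 in liver and 77.5 in parental cells. Over the 91 tested extracellular proteases 15 were higher and 19 lower without overlap (16.5% and 20.9%, against 21.2% and 25.9% of all genes). In the 2-fold set were 3 and 3 (6.59% together, against 1.06% of all genes), and limma called Klk10 only.

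Matrix and glycan genes were few in either direction. Loxl4, which crosslinks collagen and elastin, rose to 146 and 119 from 30.5 and 26.2, with 58.6 in parental cells (adjusted p = 0.0478). A second probe set of Loxl4 gave 1.37 against the 1.74 of the first. Hpse2, a heparanase homologue that lies 2 tested genes from Loxl4 on chromosome 19, rose to 106 and 74.3 from 11.3 and 8.2 (adjusted p = 0.0452). The short-chain collagen gene Col8a1 read 284 and 382 in bone, 927 and 922 in liver and 745 in parental cells, and its 3 probe sets ranged from -1.60 to -1.31. Chadl, a cartilage protein that restrains collagen fibrils, read 19.2 and 41.4 in bone, 299 and 208 in liver and 119.6 in parental cells (adjusted p = 0.0533). The sulfotransferase gene Chst2 read 31.3 and 16 in bone, 127 and 150.3 in liver and 41.6 in parental cells. Among 66 matrix protein genes 11 were higher and 16 lower without overlap (16.7% and 24.2%, against 21.2% and 25.9% of all genes).

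Genes of mineralisation were split between the sub-lines. Alpl, the alkaline phosphatase that frees phosphate for mineral, read 445 and 395 in bone, 143 and 108 in liver and 470.3 in parental cells, so that bone was level with parental cells and liver was low (adjusted p = 0.0673). Fam20c, the kinase of secreted phosphoproteins, fell to 12.4 and 8.3 from 80.3 and 95.3, with 111 in parental cells (adjusted p = 0.0437). Of 17 tested bone matrix and mineralisation genes 2 were higher and 4 lower without overlap (11.8% and 23.5%), against shares of 21.2% and 25.9% over all genes. The alkaline phosphatase gene is also an osteoblast marker, but Sp7, an osteoblast transcription factor, picked after its values were seen, overlapped at 58.4 and 34.9 against 34.3 and 56.5. Among osteoclast markers Acp5 read 410.4 and 320.2 in bone, 421 and 448 in liver and 352 in parental cells, and its difference of -0.25 turned to 0.07 when each array was centred within each chromosome.

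Factors that act on osteoclasts were split. Csf1, the growth factor of macrophages and osteoclast precursors, read 492 and 491 in bone, 1399.6 and 1044 in liver and 709 in parental cells, with 4 probe sets from -1.56 to -0.81 (adjusted p = 0.103). Tnfrsf11b, osteoprotegerin, read 47.9 and 25.6 in bone, 61.8 and 95.2 in liver and 4.2 in parental cells, and Tnfsf11, its ligand RANKL, was at background on every array (0.6 to 5.6). The Notch ligand Jag1 read 362 and 425 in bone, 1452 and 752 in liver and 677 in parental cells. The semaphorin Sema3b ran the other way, at 427 and 232 in bone, 75.7 and 68.3 in liver and 1.8 in parental cells. Of 38 tested osteoclast regulators 6 were higher and 10 lower without overlap (15.8% and 26.3%, against 21.2% and 25.9% of all genes). Limma called 0 of the 38 (13 had an unadjusted p under 0.05, as had 1775 of all 12609 genes tested).

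Other ligands and receptors were 2-fold apart in every pair. Il20rb, a subunit of the receptors for interleukins of the IL-20 group, rose to 73.7 and 93.4 from 10.4 and 12.7 (adjusted p = 0.0437). The adhesion receptor Adgrg6 read 693 and 358 in bone, 151 and 84.4 in liver and 685 in parental cells. The netrin Ntn4 read 15.2 and 12.2 in bone, 53.9 and 97.7 in liver and 39.5 in parental cells, lower in bone. The receptor tyrosine kinase Ltk read 69.6 and 62.5 in bone, 192 and 200.4 in liver and 70.5 in parental cells, and here bone was level with parental cells and liver high. Htr5b, a serotonin receptor, was at background in bone, with 2.3 and 1.6 in bone, 29.0 and 31.6 in liver and 17.7 in parental cells.

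In 2 signalling systems a pair of partner genes was 2-fold higher in bone; both pairs were noticed after the values were seen. Dhh, a hedgehog ligand, read 49.0 and 58.7 in bone, 10.4 and 13.2 in liver and 2.0 in parental cells, and Hhip, a membrane protein that binds hedgehog ligands, read 30.3 and 50.1 in bone, 3.3 and 6.8 in liver and 10.3 in parental cells. The hedgehog receptor and target gene Ptch1, picked beside them, read 201 and 136 against 136 and 130, so that the lower bone value lay within 1 unit of the higher liver value. The retinoid carriers Crabp2 and Rbp7 read 556 and 463 in bone, 103 and 171 in liver and 152 in parental cells and 1058 and 611 in bone, 181 and 229.8 in liver and 845 in parental cells. Rarb, a receptor and target gene of retinoic acid picked in the same way, read 165 and 114 against 175 and 193. None of these 6 genes passed limma.

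Protein phosphatases that were 2-fold apart were all lower in bone, 4 genes or 2.99% of those tested, against 0.619% of all genes that were 2-fold lower. Ppm1m fell to 2.2 and 8.9 from 98.4 and 157, with 104 in parental cells (adjusted p = 0.0437). The regulatory subunit Ppp2r2c of phosphatase 2A read 31.0 and 2.4 in bone, 181 and 180.1 in liver and 231 in parental cells, and its 2 probe sets gave -2.74 and -1.24. Dusp8, which inactivates stress kinases, read 26.2 and 18.7 in bone, 102 and 82.2 in liver and 55.4 in parental cells, and a second probe set gave -0.46. Ppp1r26 read 72.6 and 57.1 in bone, 172 and 167 in liver and 127 in parental cells. In the family as a whole 28 were higher and 40 lower without overlap, shares of 20.9% and 29.9% that were close to the 21.2% and 25.9% of all genes. The 148 TRIM and RING ubiquitin ligases had 20 higher and 50 lower without overlap, or 13.5% and 33.8%, against the same 21.2% and 25.9% of all genes. Their median log2 difference was -0.10, and -0.05 when each array was centred within each chromosome. Trim47 stood against the list, at 413 and 400.5 in bone, 143 and 85.9 in liver and 8.5 in parental cells.

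Egln3, an oxygen sensor that marks hypoxia-inducible factors, read 816 and 516 in bone, 152 and 190.1 in liver and 440.4 in parental cells. The 44 hypoxia and glycolysis genes split evenly, with 12 higher and 11 lower without overlap (27.3% and 25%, against 21.2% and 25.9% of all genes). Within that list Bnip3, a mitochondrial death protein induced by low oxygen, ran the other way at 108 and 84.1 in bone, 224 and 473 in liver and 252 in parental cells.

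Vesicle and secretory genes were also called, and Veph1 and Pnck, which are in none of the gene lists, are given beside them. Ston2, an adaptor of endocytosis, rose to 150 and 124 from 29.2 and 27.7, with 40.7 in parental cells (adjusted p = 0.0437). Sel1l3 fell to 33.0 and 13.9 from 239 and 225 (adjusted p = 0.0437). Fkbp11, a prolyl isomerase of the secretory pathway, rose from 12.3 and 3.0 in liver to 92.0 at bone passage 6, with a higher value still at bone passage 3 (adjusted p = 0.0452), but a second probe set gave 0.16. Veph1, a protein that binds membrane lipids, read 22.9 and 16.5 in bone, 106 and 108 in liver and 9.7 in parental cells (adjusted p = 0.0437). Pnck, a calcium and calmodulin dependent kinase, fell to 5.9 and 4.6 from 50.5 and 53.5 (adjusted p = 0.0437). For Veph1 the parental array stood with bone, and for Sel1l3, at 200.3, with liver.

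**Figure D2:**
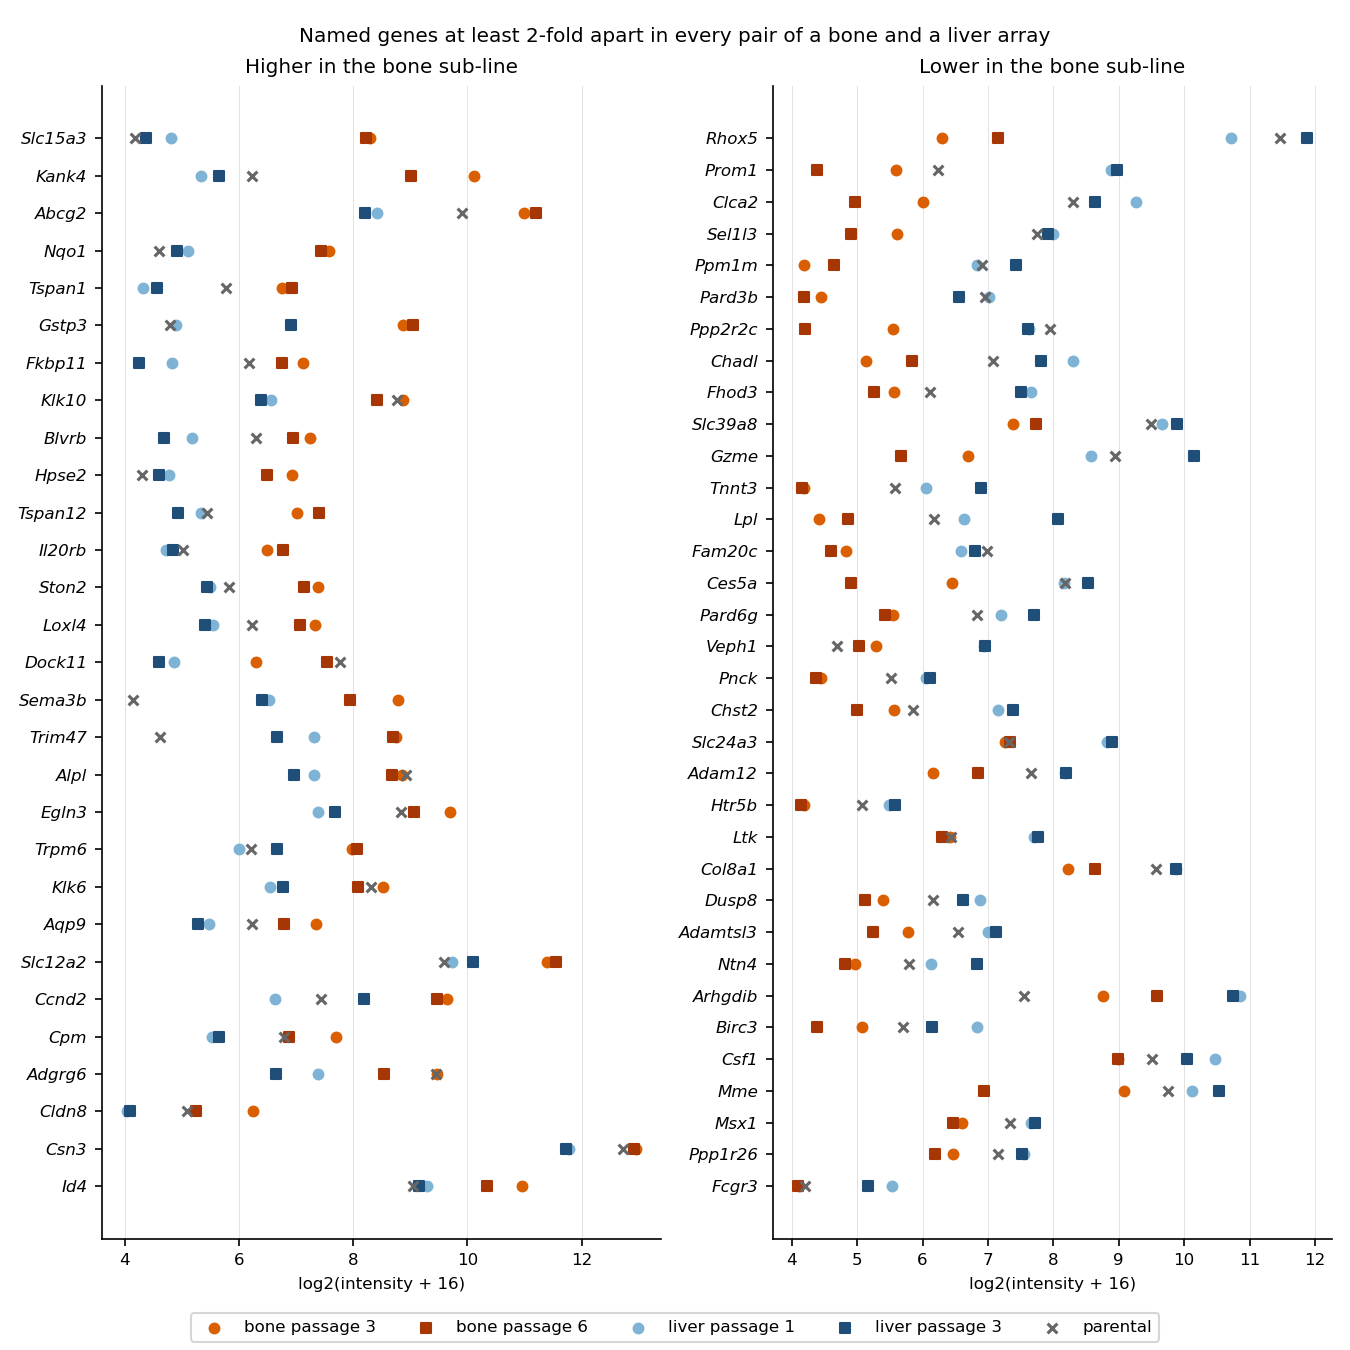
Log2(intensity + 16) on each array for the genes chosen by the naming rule that were 2-fold apart or more in all pairings, ordered by the distance between the closest bone and liver arrays. Orange symbols are the bone passages, blue symbols the liver passages and crosses the parental cells; the crosses fall with bone in some genes and with liver in others.

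Transcription factors and cell cycle genes added a few large differences. Rhox5, a homeobox gene of the reproductive tract, fell to 63.0 and 126 in bone from 1662 and 3731 in liver, with 2810 in parental cells (adjusted p = 0.0437). Msx1, a homeobox gene of mesenchyme and mammary development, read 81.3 and 72.3 in bone, 185 and 194 in liver and 146 in parental cells. Id4, which blocks basic helix-loop-helix factors and marks basal mammary cells, read 1978 and 1282 in bone, 607 and 555 in liver and 509.9 in parental cells, with 3 probe sets from 1.43 to 1.72. Cebpa, a factor of differentiation and lipid storage, read 16.4 and 24.2 in bone, 82.1 and 63.2 in liver and 85.5 in parental cells and just missed the 2-fold line in its closest pairing. Ccnd2, a cyclin of the G1 phase, read 786 and 688 in bone, 83.7 and 276 in liver and 158 in parental cells, and its 7 probe sets ranged from 0.69 to 2.14. The other lists were balanced. Of 269 general transcription factors 65 were higher and 67 lower without overlap (24.2% and 24.9%, against 21.2% and 25.9% of all genes). Of 56 homeobox and developmental factors 15 were higher and 14 lower (26.8% and 25%).

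Several milk and lipid genes were higher in bone. Csn3, which encodes kappa-casein, was among the brightest genes, at 7863 and 7739 in bone, 3499.8 and 3350.2 in liver and 6731 in parental cells, and a second probe set gave 1.38 against 1.18. Bone and parental cells were level and liver stood alone. Of 27 tested luminal and milk genes 11 were higher and 3 lower without overlap (40.7% and 11.1%, against 21.2% and 25.9% of all genes), and Prom1 (lower) was the 1 member called. Their median log2 difference of 0.25 was 0.10 without bone passage 3. Wfdc18, a small secreted protein with a whey acidic protein domain, read 5403 and 3432 in bone, 1568 and 2512 in liver and 3624 in parental cells. Scd1, the desaturase that makes oleate, read 2398 and 1647 in bone, 628 and 877 in liver and 501 in parental cells, and the lipoprotein phospholipase Pla2g7 read 3023 and 2148 in bone, 1272 and 922 in liver and 2318 in parental cells. Lpl, which releases fatty acids from lipoproteins, went the other way at 5.3 and 13.0 in bone, 82.8 and 254 in liver and 56.0 in parental cells, and it was at background in bone. Among 68 genes of cholesterol and fatty acid metabolism 18 were higher and 10 lower (26.5% and 14.7%). Their median log2 difference was 0.11, but -0.07 without liver passage 1.

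Genes of the interferon response were lower in bone or overlapped. Interferons act through STAT factors and IRF9, which bind interferon-stimulated response elements. Of 56 tested members, 0 were higher and 18 lower without overlap (0% and 32.1%, against 21.2% and 25.9% of all genes). In either direction the share was 32.1%, below the 47.1% of all genes. The median log2 difference was -0.55. The summed intensity of the list overlapped, at 26229 and 15484 in bone and 20274 and 30032.5 in liver. Limma called 0 members, and 9 of the 56 were under an unadjusted p of 0.05, as were 1775 of all 12609 genes tested. Leaving out bone passage 6 gave a median of -0.16, and leaving out bone passage 3 gave -0.89. Without bone passage 6, where fewer pairs remain, 11 of the 56 members were higher without overlap, against 4457 of all 12609 genes tested.

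The core of that element, GAAA followed after any 2 bases by another GAAA, was searched on both strands of the same promoters. It was found in 3.44% of all promoters, in 22 of the 44 interferon genes with a promoter in the table and in 8 of the 14 among the 18 lower ones. The promoters of 3 of these 8 are shown with the matching bases in capitals, as examples of lower members that carry the core: Cxcl10 (chr5:92348840-92349139, minus strand), Ifit3 (chr19:34583279-34583578, plus strand) and Gbp2 (chr3:142620413-142620712, plus strand). These were picked for their match after the values were seen.
Cxcl10: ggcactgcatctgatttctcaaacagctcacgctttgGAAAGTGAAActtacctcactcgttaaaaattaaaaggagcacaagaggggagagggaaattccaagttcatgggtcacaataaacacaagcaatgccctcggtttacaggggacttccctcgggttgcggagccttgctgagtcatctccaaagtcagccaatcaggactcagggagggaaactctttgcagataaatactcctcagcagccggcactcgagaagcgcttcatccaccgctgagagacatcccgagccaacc
Ifit3: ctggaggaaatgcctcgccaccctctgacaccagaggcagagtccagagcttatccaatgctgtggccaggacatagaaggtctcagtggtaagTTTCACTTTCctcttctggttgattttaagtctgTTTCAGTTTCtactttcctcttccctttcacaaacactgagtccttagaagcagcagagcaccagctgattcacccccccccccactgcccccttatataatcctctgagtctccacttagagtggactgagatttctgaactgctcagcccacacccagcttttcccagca
Gbp2: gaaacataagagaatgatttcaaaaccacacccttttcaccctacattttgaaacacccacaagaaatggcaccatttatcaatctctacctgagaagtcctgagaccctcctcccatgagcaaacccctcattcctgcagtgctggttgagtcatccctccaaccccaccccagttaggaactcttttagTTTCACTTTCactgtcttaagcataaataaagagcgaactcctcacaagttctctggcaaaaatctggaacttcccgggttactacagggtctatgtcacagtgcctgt
Cxcl10, a chemokine that draws T cells, read 22.2 and 1.3 in bone, 86.5 and 57.6 in liver and 14.9 in parental cells. Ifit3, an antiviral gene, read 43.4 and 9.0 in bone, 72.6 and 139.7 in liver and 9.7 in parental cells, and the guanylate-binding protein Gbp2 read 80.8 and 41.4 in bone, 140.0 and 258 in liver and 77.6 in parental cells. In each of the 3 genes the 2 passages of a line were themselves apart, with bone passage 6 the lowest of the 4 arrays. Trim30a, a further member, read 17.2 and 11.6 in bone, 44.9 and 79.5 in liver and 65.0 in parental cells, and here parental cells stood with liver.

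Chemokines and inflammatory genes were also compared. Of 35 chemokines and receptors 3 were higher and 17 lower without overlap (8.57% and 48.6%, against 21.2% and 25.9% of all genes). Their median log2 difference was -0.29, but -0.09 when each array was centred within each chromosome and -0.12 with the filter on the mean intensity. Ccl20, which draws cells that carry CCR6, read 90.8 and 122 in bone, 560.1 and 258 in liver and 588 in parental cells. Against the list stood Ccl9 at 34.8 and 67.1 in bone, 12.2 and 29.8 in liver and 18.9 in parental cells and Cxcr4, the receptor of Cxcl12, at 27.5 and 9.1 in bone, 4.5 and 6.8 in liver and 2.6 in parental cells. Cxcl12 itself was at background, with 17.4 and 9.9 against 11.4 and 13.4. In the NF-kB and interleukin 1 list 8 of 48 were higher and 21 lower (16.7% and 43.8%). Its median log2 difference of -0.18 became -0.02 with liver passage 1 left out and -0.08 with bone passage 6 left out. Birc3, an inhibitor of cell death induced by NF-kB, read 17.8 and 5.0 in bone, 98.2 and 54.6 in liver and 36 in parental cells, while Cd14, the coreceptor for bacterial lipopolysaccharide, read 450.2 and 928 in bone, 212 and 242 in liver and 336 in parental cells. Limma called 0 members of both lists (8 of 35 and 16 of 48 had an unadjusted p under 0.05, as had 1775 of all 12609 genes tested).

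Some markers of macrophages, picked from their list after the values were seen, stood out at liver passage 1. The summed intensity of the 21 tested macrophage and monocyte markers was 1065 and 1392 in bone and 1571 and 1069 in liver. Of these 21, 1 was higher and 7 lower without overlap (4.76% and 33.3%, against 21.2% and 25.9% of all genes). In either direction the share was 38.1%, against 47.1% of all genes. The 1 that was higher is Cd14, at 450.2 and 928 in bone, 212 and 242 in liver and 336 in parental cells. The median log2 difference of the 21 markers, -0.65, became -0.00 without liver passage 1. Of the 27 on the array, 7 stayed below 25.1 on all 4 arrays and 7 reached 100 on at least 1. Complement C1qa read 1.0 and 1.2 in bone, 56.1 and 1.1 in liver and 0.9 in parental cells. Cathepsin S, Ctss, read 1.9 and 10.2, then 116 and 16.8, and lysozyme, Lyz2, read 26.5 and 22.7, then 140.4 and 42.2. The pan-leukocyte gene Ptprc was low everywhere, at 12.9 and 9.4 in bone and 25.7 and 6.1 in liver. Fcgr3, an IgG receptor, was 2-fold apart in every pair but dim, at 1.3 and 1.1 in bone, 30.4 and 19.7 in liver and 2.4 in parental cells. The part of these markers in the immune lists was not tested. In such bulk RNA, fewer cells of a type and less RNA per cell cannot be told apart.

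A pair of neighbouring serine protease genes of lymphocyte and basophil granules was also lower in bone. Granzyme E, Gzme, read 87.1 and 34.7 in bone, 364 and 1126 in liver and 474 in parental cells. Mcpt8, the next tested gene to it on chromosome 14 and chosen after its values were seen, read 55.6 and 48.6 in bone, 181 and 492 in liver and 279 in parental cells. For both, liver passage 3 was the higher of the liver arrays and parental cells stood between the liver passages. The lymphocyte markers did not share this direction: of 4 tested, 2 were higher and 1 lower without overlap (50% and 25%, against 21.2% and 25.9% of all genes). The lower one, Prf1, perforin, read 31.8 and 27.2 in bone, 35.4 and 34.4 in liver and 31.4 in parental cells. Higher were Ighm, at 332 and 154.5 in bone against 78.8 and 104.5 in liver, and Cd8a, at 69.2 and 68.7 against 52.1 and 52.8. The antigen-presenting gene H2-Ab1 was near background with 5.1 and 3.9 in bone, 28.7 and 22.2 in liver and 26.4 in parental cells.

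Housekeeping lists showed small differences in one direction. Of 45 ribosomal protein genes 34 were higher and 3 lower in bone without overlap (75.6% against 21.2% of all genes), but the median log2 difference was only 0.19. Of 85 respiratory chain genes 50 were higher and 8 lower (58.8% and 9.41%, against 21.2% and 25.9% of all genes), with a median of 0.20. Limma called 0 of either list (2 of 45 and 7 of 85 had an unadjusted p under 0.05, as had 1775 of all 12609 genes tested). The ribosomal count turned on the scaling: after quantile normalization 12 of 45 were higher and 10 lower, with a median of 0.02, whereas 40 of 85 respiratory genes were still higher and 10 lower. Of all 12563 genes tested after that normalization, 3002 were higher and 2927 lower without overlap. Rpl37 read 3429 and 3408 in bone, 1836 and 2327 in liver and 2851 in parental cells, and the complex I subunit Ndufa4 read 3611 and 4122 in bone, 1932 and 2559.6 in liver and 3152 in parental cells.

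The exceptions in both lists included genes of chromosome X. The ribosomal gene Rpl39 read 155 and 154 in bone, 211 and 162 in liver and 137 in parental cells, and the complex I subunits Ndufa1 and Ndufb11 read 2206 and 2126 in bone, 2521 and 2732 in liver and 2366 in parental cells and 1777 and 1648 in bone, 1998 and 2143 in liver and 1884 in parental cells. All 3 are X-linked, and their differences of -0.24, -0.28 and -0.27 turned to 0.42, 0.38 and 0.38 when each array was centred within each chromosome. By contrast the 54 genes of DNA replication and mitosis had the smallest share without overlap of the lists that are not cell type markers, with 2 higher and 2 lower without overlap (7.41% against 47.1%). Their summed intensity was 41255 and 60087 in bone and 33694 and 52083 in liver, so that it was higher at the later passage of each line.

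**Figure D3:**
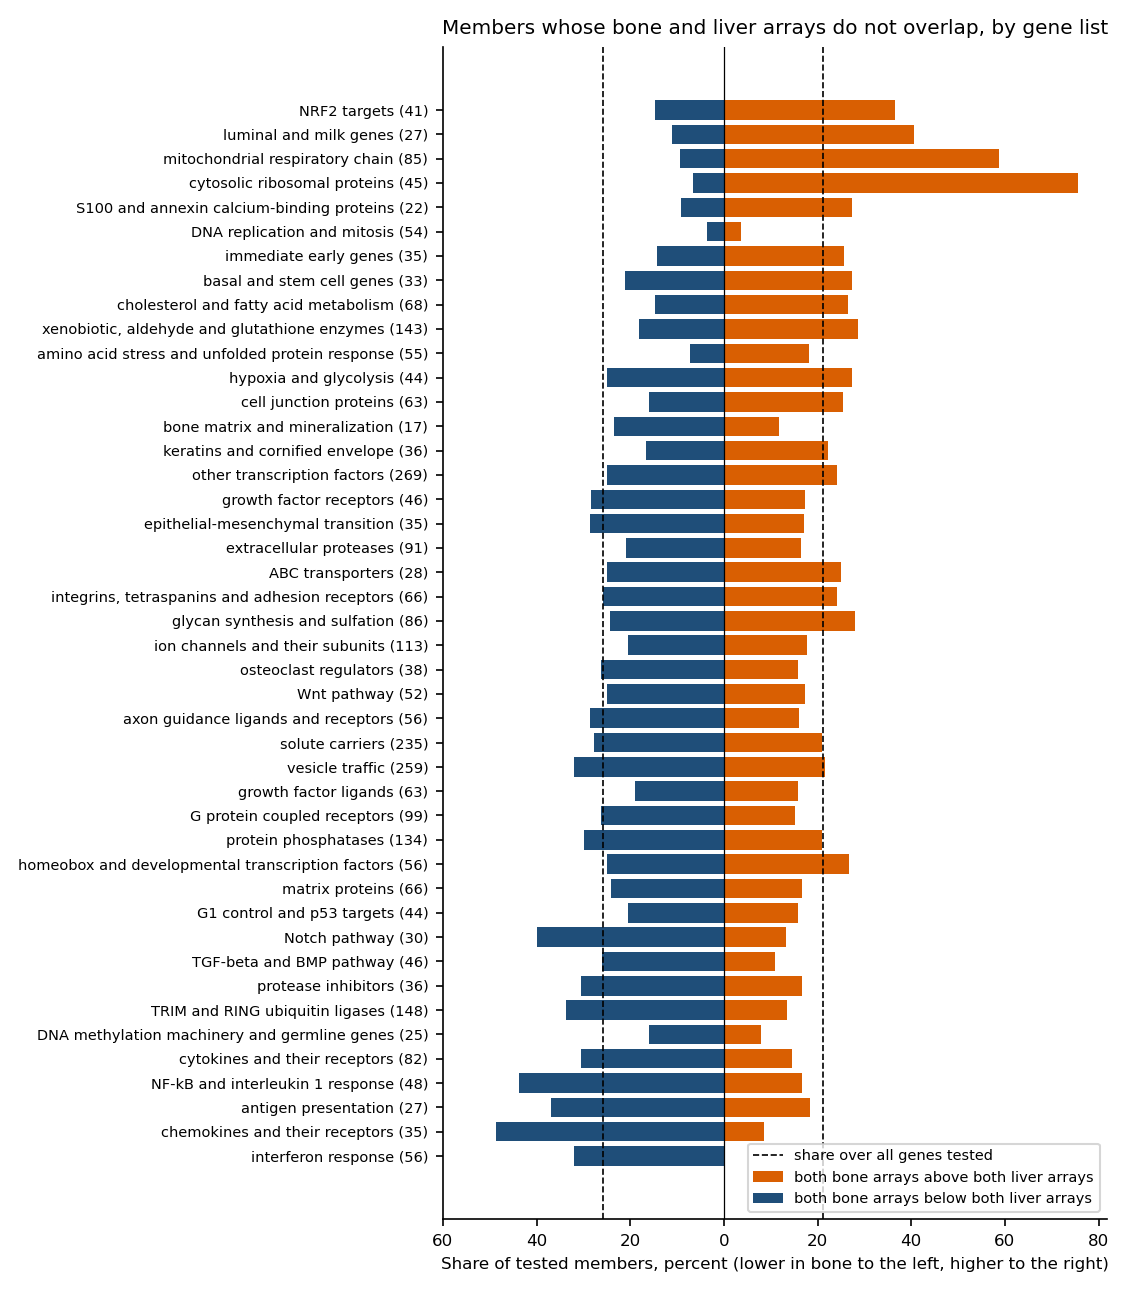
Share of each plotted list's tested members (number in brackets) whose bone and liver arrays did not overlap, lower in bone to the left and higher to the right, sorted by the median difference. Dashed lines mark the shares over all genes tested, 25.9% and 21.2%; ribosomal and respiratory genes exceed the right line by most and chemokines the left one.

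Genes that differed were not spread evenly over the chromosomes. Of the 354 tested genes of chromosome X, 70.9% were lower in bone without overlap and 3.39% higher, and their median log2 difference was -0.51. Chromosome 9 had a median of -0.29 (56% lower), chromosome 3 of -0.27 (51% lower) and chromosome 5 of -0.21 (45.7% lower). Chromosome 6 went the other way, with 0.17 (41.8% higher). In these 5 chromosomes the sign was the same in all 4 pairings. That also held for chromosome 2 and for others with smaller medians, such as chromosomes 11 and 19, so it does not set the 5 apart. Chromosome 2 had a median of -0.14, most of it at bone passage 6, which lay 0.19 below bone passage 3. The medians of the other chromosomes lay between -0.02 and 0.09.

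**Figure D4:**
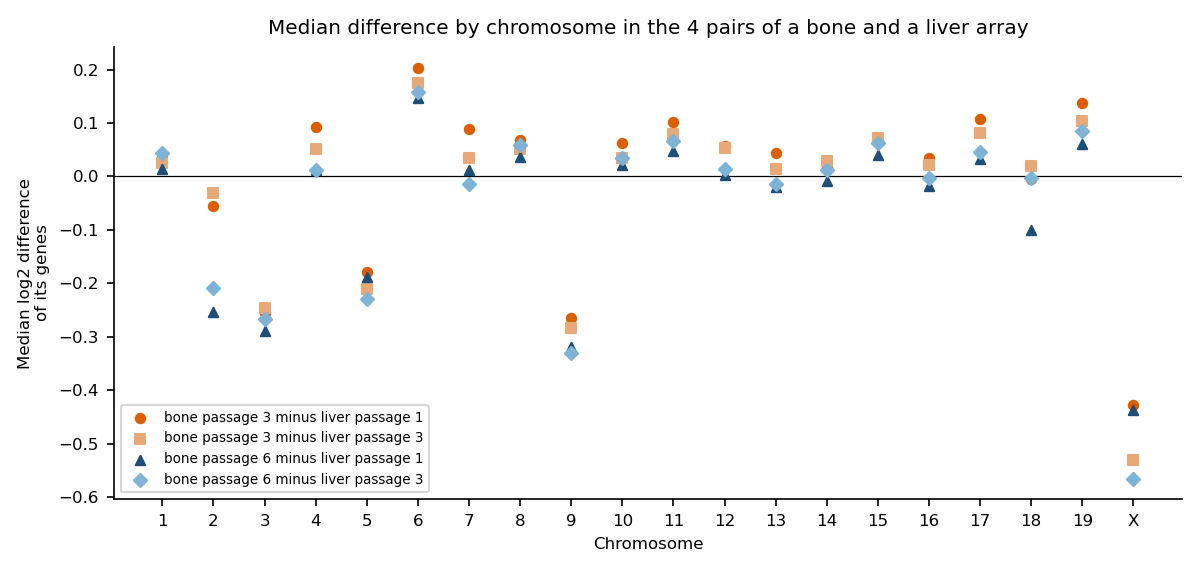
Median log2 difference of the tested genes of each chromosome, in each of the 4 pairings. Chromosomes X, 9, 3, 5 and 2 lie below 0 and chromosome 6 above 0 in all 4 pairs, and chromosome 2 differs between the bone passages. Other chromosomes nearer 0, such as 11 and 19, also keep their sign.

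Among genes with a mean intensity of at least 100 the pattern was sharper. Of 210 such genes on chromosome X 85.2% were lower without overlap and 0.952% higher, with a median of -0.61. Of 444 on chromosome 9 65.8% were lower. The shift on chromosome 6 lay in the first part of its gene order: over 5 consecutive stretches of equal gene number the medians were 0.32, 0.20, 0.25, 0.01 and 0.05. On chromosome 9 all 5 stretches lay between -0.35 and -0.24, and on chromosome X between -0.57 and -0.34.

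**Figure D5:**
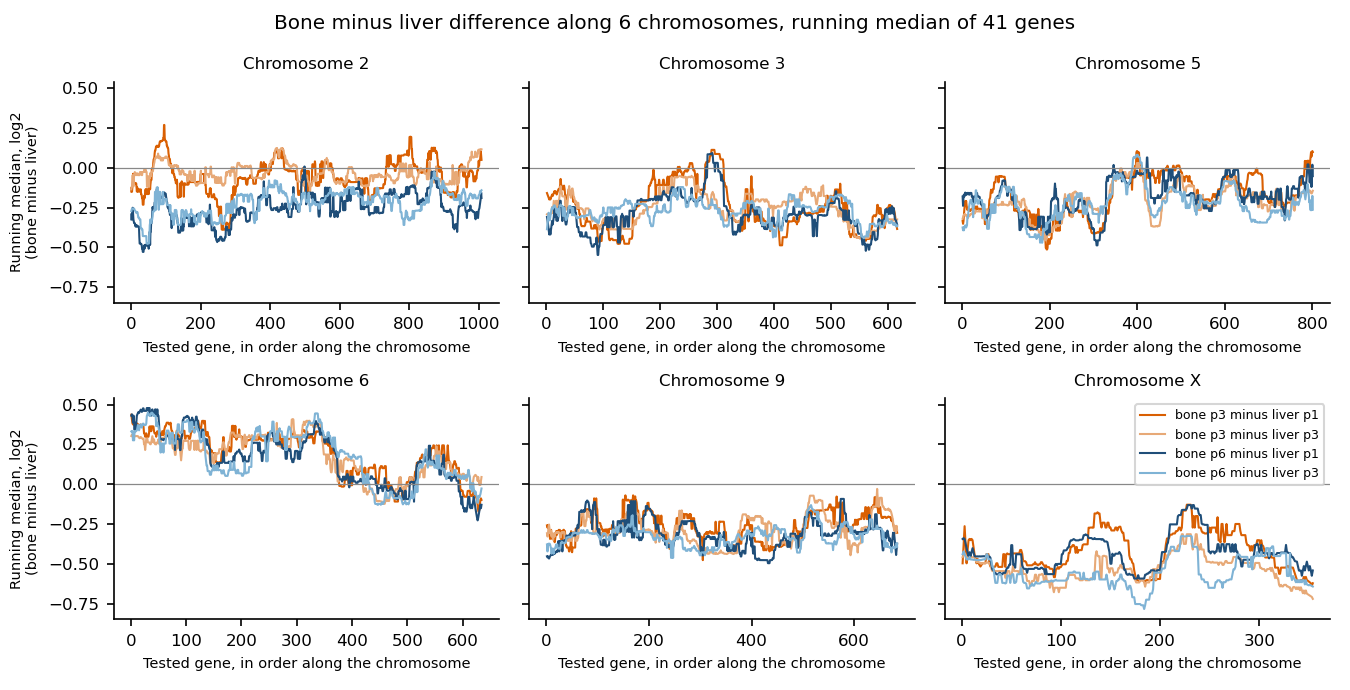
Running median over 41 consecutive tested genes of the log2 difference along 6 chromosomes, with 1 line for each pairing (p is passage). The horizontal axis is the order of tested genes. Chromosome 6 leaves its raised level past the middle of its gene order, and chromosomes 9 and X stay below 0 along their length.

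The parental array placed these shifts in 1 sub-line or in both. Chromosome 9 had a median of -0.32 in bone and -0.01 in liver against parental cells, and chromosome 3 of -0.22 and 0.07. Chromosome 5 had -0.05 in bone and 0.17 in liver. On chromosome X bone lay at -0.20 and liver at 0.28, so the sub-lines stood on either side of parental cells. In the first stretch of chromosome 6 bone lay at 0.13 and liver at -0.21. Chromosome 12 was 0.20 lower in bone and 0.24 lower in liver than in parental cells, and the sub-lines differed by only 0.02. The parental values are 1 array, shared by both comparisons.

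Xist, the RNA that silences an X chromosome in female cells, was looked up after the pattern was seen. It read 20.8 and 40.5 in bone, 48.6 and 31.7 in liver and 225 in parental cells, so it was low in both sub-lines and higher in parental cells. Among the 78 genes that were 2-fold lower, 11 lie on chromosome X (3.11% of its tested genes, against 0.619% of all genes). Besides Rhox5 and Pnck the 11 include the following, chosen after their values were seen. Vma21, an assembly factor of the proton pump, read 421 and 391 in bone, 1198 and 1009.5 in liver and 646 in parental cells, with 4 probe sets from -1.49 to -1.40. The ubiquitin ligase scaffold Cul4b read 209 and 297 in bone, 632 and 685 in liver and 383 in parental cells. Prkx, a kinase related to protein kinase A, read 193 and 190.3 in bone, 429.5 and 465 in liver and 189 in parental cells. When each array was centred on its median within each chromosome, an alternative added after the data were seen, 101 genes of the 2-fold set stayed 2-fold apart in all pairings. The limma count was then 47, with 23 of the original 24 among them.

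Parental cells were nearer to the liver mean in 32 and nearer to the bone mean in 24 of the 56 higher genes, and in 50 and 28 of the 78 lower genes. Within 1 log2 unit of the liver mean, and farther from the bone mean, were 26 of the higher and 34 of the lower genes. The reverse held for 17 and 20. In 24 of the higher genes both liver arrays were below the overall median of 25.1, and in 31 of the lower genes both bone arrays were, so that the fold change of these genes is a difference from near background. Several probe sets were present for 22 of the higher genes, and 37 of their 38 further probe sets had the same sign. The exception was 1 probe set of Enpp3 at -0.06. For the lower genes all 52 further probe sets of 35 genes had the same sign, and 48 did not overlap in the same direction. Only 11 of the 38 and 17 of the 52 further probe sets were themselves 2-fold apart in every pair.

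The 2-fold threshold divides a continuous range, and the genes beside it are given for that position alone. Just inside it were Enpp3 (203 and 207 against 82.2 and 93.0), Samd4 (114 and 120.3 against 314 and 257) and Rhpn2 (172 and 156 against 34.8 and 69.6). Just outside were Ccl20 (90.8 and 122 against 560.1 and 258), Chm (182 and 151 against 389 and 377) and Rhoj (28.8 and 38.1 against 120.3 and 91.3). Without 1 array the count of genes 2-fold apart was 259 to 399, since only 2 pairs then remain. With 1 array left out, the lone array of that sub-line is assumed to vary like the other pair, from which alone the spread is then estimated. On that footing limma called 0 genes without liver passage 1 and also 0 when liver passage 3 was dropped (1325 and 2020 at an unadjusted p under 0.05), and 75 and 53 without bone passage 3 and 6.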

How the data were processed

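Total RNA of the 5 samples was labelled with biotin, per the labels, and measured on 1-colour Affymetrix Mouse Genome 430 2.0 arrays, the platform of the probe annotation used. The authors deposited 1 intensity per probe set and array. The submitters' processing notes name RMA, whose output is on a log2 scale, but the deposited values are linear, and the mean of each array after trimming 2% at each end is 150.001. No genome build is named in the labels or headers. The number of arrays limits the precision.

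The deposited intensities were taken to log2(intensity + 16). Of 45101 probe sets, 34958 carry 1 gene symbol, 932 several and 9211 none; the symbols of 34741 probe sets matched the RefSeq table. A gene was represented by its probe set of highest mean log2 value and was tested when it reached 25.1, the median of all values, on at least 1 array, which left 12609 of 18193 genes. limma 3.58.1 in R 4.3.3 was fitted to all 5 arrays (residual df 2, prior df 4.2) with Benjamini-Hochberg adjustment, and was tested on simulated data. The files hold 0 columns of other samples.

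Leaving out predicted and EST names, the named genes (168 in all) are those called, the widest gaps in each direction, up to 4 genes per list and direction that are 2-fold apart in every pairing, up to 2 per list and direction where none is, and a fixed set whatever their values, such as Epcam, Csf1 and Cxcl12. The members and the 60 lists (26 of them by symbol pattern, 15 of cell type markers) were chosen with earlier results of these data known. The result of 1 list is not reported here. Alternatives covered the filter, the pseudocount, scaling, probe-set choice, left-out arrays and the variance model. Sequences and gene order are from RefSeq, GRCm38.p6. Pthlh, Runx2, Spp1 and Ctgf were not analysed here.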

Additional observations from a re-analysis of the deposited data

How the results depend on the processing

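The 24 called genes depended on the settings. limma called 0 with no filter on low values and 0 with a pseudocount of 1 (2154 and 1581 genes at an unadjusted p under 0.05), 39 with the filter on the mean, 61 with each array centred on its median (34 higher, 27 lower), 15 with the mean of a gene's probe sets, 52 with a mean-variance trend, 161 with stage as a block, 1 against a 1.5-fold minimum (293 unadjusted) and 47 with centring within chromosomes, which was chosen after seeing the data. Leaving out 1 array, which leaves the spread to the other pair, gave 0 to 75. The count of genes 2-fold apart was 246 with a pseudocount of 1, 52 with 64, 36 at 3-fold and 259 to 399 without 1 array. Genes without overlap numbered 10533 when every probe set was counted and 8817 to 9738 without 1 array, where fewer pairs remain. Of the named genes' values under the alternatives 1805 kept direction and side of the threshold, 117 lost and 70 gained the call and 9 reversed. The reversals were Eya3 at -0.00984 with the mean of probe sets and Cxcl12, which ranged from -0.13 without bone passage 3 to 0.23 without bone passage 6. With centring within chromosomes they were Cxcl12 at -0.081, Acp5 at 0.071, Anxa2 at 0.084, Ndufa1 at 0.38, Ndufb11 at 0.38, Porcn at 0.12 and Rpl39 at 0.42. Centring moves the differences of all genes of a chromosome by the same amount. Apart from that and from the effect of fewer arrays or probe sets, the cause was not tested. Of the list medians 650 stayed within the spread and 70 moved. The block pairs the earlier and the later passage of each sub-line; the passage numbers in the labels do not pair the samples, since only passage 3 is shared. The arrays carry no depth, and genes near background are limited by signal: 24 of the 56 higher and 31 of the 78 lower genes have the lower line below 25.1.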

Other observations

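Probe sets without a single gene symbol were kept out of the tests on genes. Control probe sets aside, there were 10092 of them, and 3166 reached the filter. At least 2-fold apart in every pair were 2 that were higher and 9 that were lower in bone, which is 0.347%. Bone and liver values did not overlap for 41.8%, against 47.1% of the genes tested.

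Several genes of the 2-fold set lie close together in gene order. Pairs separated by at most 3 tested genes and differing in the same direction include Csgalnact1 (-1.86) and Lpl (-2.71) on chromosome 8, with 1 tested gene between them, Cubn (-1.35) and Hacd1 (-1.60) on chromosome 2, with 3, and Rhox5 (-4.57) and Cul4b (-1.34) on chromosome X, with 3. In a pair on chromosome 6 the directions were opposite: Antxr1 (-2.02) and Aplf (1.45), with 3 between. Opposite directions were also seen for Megf10 (-1.46) and Slc12a2 (1.57) on chromosome 18, with 2 between. The pairs were picked with their values in view.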
